A study of Arabidopsis thaliana with 6 samples.

Results

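The 10 genes described here set or report the iron status of Arabidopsis thaliana. 4 of them are group Ib bHLH transcription factors, BHLH38 (AT3G56970), BHLH39 (AT3G56980), BHLH100 (AT2G41240) and BHLH101 (AT5G04150). 3 are E3 ubiquitin ligases, BTS (AT3G18290), BTSL1 (AT1G74770) and BTSL2 (AT1G18910). The others are the bHLH factor PYE (AT3G47640), the phloem transporter OPT3 (AT4G16370) and the nicotianamine synthase NAS4 (AT1G56430). They were taken by locus tag, as known members of the pathway and with earlier results of these data in view, and all 10 were among the 26552 loci with a usable value. Poly(A) RNA was sequenced from whole Col-0 seedlings that were 6 days old and had grown in dishes of shaken medium. In the DMMTA group, 3 libraries, the medium held dimethylmonothioarsenate (DMMTA) at 15 µM during the last 6 h. DMMTA is an arsenic compound with methyl groups and a sulfur bound to the arsenic. The control group, also 3 libraries, was given no DMMTA. The labels call the libraries of a group biological replicates, and the iron content of the medium is not given in the sources used here.

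Plants short of iron switch on a cascade of bHLH transcription factors. Group IVc factors (ILR3, BHLH34, BHLH104 and BHLH115), together with URI of group IVb, activate the genes for the group Ib factors, for PYE and for BTS. Group Ib proteins then pair with FIT, the root regulator, to drive the ferric reductase FRO2 and the iron importer IRT1. BTS is a ligase with iron-binding hemerythrin domains that marks group IVc factors for destruction, and BTSL1 and BTSL2 act on FIT in the root, so the ligases restrain uptake. PYE is a group IVb factor that represses genes of iron movement, NAS4 among them. OPT3 carries iron and copper in the phloem and informs the root of the state of the shoot, and NAS4 makes nicotianamine, a chelator that moves iron between cells. In earlier work on iron-starved Arabidopsis the transcripts of the 10 genes were seen to accumulate.

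The 250 bases before the annotated gene start are shown for 3 group Ib genes that fell in DMMTA and for BTS, which rose. Sequences and positions are those of RefSeq for the TAIR10.1 build, written 5′ to 3′ on the strand of the gene, and none of these windows overlapped another annotated gene. Capitals mark CACGTG, the G-box, a palindrome that reads the same on both strands and that bHLH proteins are known to bind.
BHLH38, chr3:21085246-21085495, minus strand: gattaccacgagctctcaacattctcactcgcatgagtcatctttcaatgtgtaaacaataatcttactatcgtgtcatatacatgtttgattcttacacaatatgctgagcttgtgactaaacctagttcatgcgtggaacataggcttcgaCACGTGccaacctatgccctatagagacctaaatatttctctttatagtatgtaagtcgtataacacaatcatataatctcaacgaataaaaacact
BHLH39, chr3:21087711-21087960, minus strand: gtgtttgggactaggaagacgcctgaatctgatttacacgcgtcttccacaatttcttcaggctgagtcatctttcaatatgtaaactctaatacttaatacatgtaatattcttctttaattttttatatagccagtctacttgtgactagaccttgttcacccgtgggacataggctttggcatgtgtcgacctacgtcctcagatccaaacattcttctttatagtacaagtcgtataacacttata
BHLH100, chr2:17199455-17199704, minus strand: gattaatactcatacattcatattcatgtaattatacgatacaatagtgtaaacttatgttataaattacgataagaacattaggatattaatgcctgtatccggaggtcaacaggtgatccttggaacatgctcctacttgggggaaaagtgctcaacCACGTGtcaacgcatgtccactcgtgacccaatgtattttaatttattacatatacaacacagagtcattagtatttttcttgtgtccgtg
BTS, chr3:6273716-6273965, plus strand: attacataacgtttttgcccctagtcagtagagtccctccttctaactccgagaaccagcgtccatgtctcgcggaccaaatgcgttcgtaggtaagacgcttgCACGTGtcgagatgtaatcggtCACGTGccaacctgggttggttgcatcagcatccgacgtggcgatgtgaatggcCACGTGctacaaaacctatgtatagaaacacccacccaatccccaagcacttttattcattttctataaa
The BTS window held 3 G-boxes, those of BHLH38, BHLH100 and OPT3 held 1 each, and the windows of the other 6 genes held 0. Of the 27443 protein-coding genes with such a window, 6.486% had a G-box. The looser pattern CANNTG, which includes the G-box, stood in the windows of 8 of the 10 genes, all but BHLH101 and PYE, and in 55.32% of all windows. The motif was thus present in windows of genes that fell and of one that rose, and a match of letters is no evidence of binding.

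The coding sequences of the group Ib genes resemble each other. BHLH38 and BHLH39, neighbours on chromosome 3, were identical at 84.78% of 762 aligned bases, BHLH39 and BHLH100 at 78.28%, and BHLH101 was at 63.66% to 67.21% to the other 3. BTSL1 and BTSL2 were identical at 79.30% of aligned bases and each at 64.12% to 65.25% to BTS. No window of 50 bases in the coding sequence of any of the 10 genes occurred in the coding sequence of another locus, so reads of that length without mismatches can be assigned to 1 of them.

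Levels are given as TPM computed from the deposited RPKM values, a unit scaled by coding length, summed over the coding rows of a locus. PYE has 3 such rows, BTSL1, BHLH100 and BHLH101 have 2 each, and the other 6 genes have 1. Where 2 rows of a short locus were equal, 66.7% of 60 low values came to whole reads (within 0.2 read) per row and 80.0% when summed, against 92.8% for loci of 1 row. For 3 rows there were 6 such values, too few to tell whether reads were divided between rows or counted in each. In the second case the levels of PYE, BTSL1, BHLH100 and BHLH101 would be too high beside the other genes, also in the order of levels below BTS. Log2 fold changes, DMMTA over control, were taken of TPM + 0.5, so the change of a low gene is understated, and each has its standard error (SE). Unless another test is named, adjusted p-values come from limma. They were corrected by the Benjamini-Hochberg method for all loci tested in a fit, 18814 in the main fit. A locus was called at an adjusted p under 0.05. The files hold no counts, and depth, read from the spacing of low values, was 66100000 to 109700000 reads in the DMMTA libraries and 72400000 to 134400000 reads in the control libraries. Replicate 3 was the shallowest of each group. Of all loci tested 27.9% were called, 3272 (17.4%) higher and 1978 (10.5%) lower in DMMTA. The calls higher were 62.3% of all calls here and 50.8% when limma-voom was run on reads rebuilt from the values. In bulk seedlings, fewer cells of a type and less RNA per cell cannot be told apart.

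Transcripts of 3 of the 4 group Ib factors fell, and the fourth was too low to be tested. BHLH38 had 0.407, 0.419 and 0.594 TPM in the DMMTA libraries, against 3.87, 2.85 and 2.38 TPM in the control libraries. The groups did not overlap, and the mean was 0.473 ± 0.105 TPM in DMMTA and 3.03 ± 0.765 TPM in control (SD, n = 3 each), 6.41-fold lower in DMMTA. It fell by 1.84 on the log2 scale (SE 0.20, adjusted p = 2.55e-04). BHLH39 had 0.904, 0.882 and 1.22 TPM in DMMTA, against 3.84, 3.97 and 1.85 TPM in control. Its means were 1.00 ± 0.191 TPM in DMMTA and 3.22 ± 1.19 TPM in control, a 3.21-fold decrease. The groups did not overlap, and control replicate 3 lay closest to the DMMTA libraries. BHLH39 fell by 1.26 on the log2 scale (SE 0.26, adjusted p = 0.00763).

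BHLH100 was listed at 0 TPM in all 3 DMMTA libraries, against 2.53, 1.59 and 1.20 TPM in the control libraries. Converted with coding length and estimated depth, the control values correspond to about 253, 179 and 80.1 reads, and the DMMTA values to 0. The locus passed the test as lower (adjusted p = 2.62e-04), and no fold is given against a group at 0. BHLH101 was the lowest group Ib gene in control, with 0.0181, 0.0624 and 0.0532 TPM in DMMTA and 0.154, 0.0261 and 0.103 TPM in control. These values correspond to at most 5.78 reads in a DMMTA library and 15.8 reads in a control library. The groups overlapped, and the locus failed the filter of 1 TPM or more in 3 or more libraries. BHLH38 and BHLH100 reached 1 TPM in the control libraries alone and BHLH39 in the 3 control libraries and 1 DMMTA library. The 3 group Ib genes that were tested thus passed the filter through the group in which they were higher, and their number is no measure of how many group Ib genes fall.

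Summed over the 4 genes, group Ib transcripts came to 1.33, 1.36 and 1.87 TPM in DMMTA, against 10.4, 8.43 and 5.53 TPM in control. Control replicate 3 was the lowest control here and still above every DMMTA library. BHLH39 made up 64.7% to 68.0% of that sum in the DMMTA libraries and 33.4% to 47.1% in the control libraries. BHLH38 made up 30.6% to 31.8% in DMMTA and 33.7% to 43.0% in control.

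**Figure D1:**
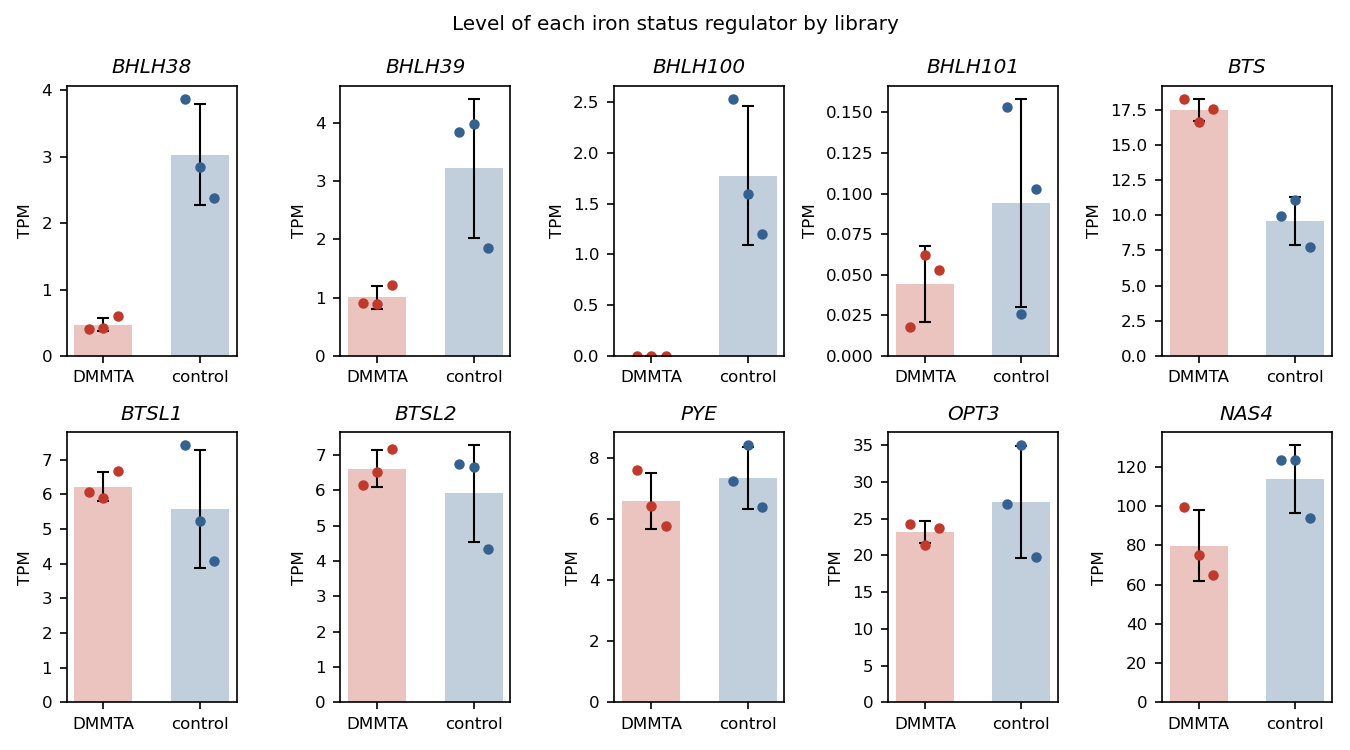
Level in TPM of each of the 10 genes, with DMMTA left and control right. Points are the 3 libraries of a group, bars their mean and error bars the SD. BHLH38, BHLH39 and BHLH100 have DMMTA libraries below every control library, BTS has them above, and the groups of the other 6 genes overlap.

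BTS, the ligase that acts on group IVc factors, rose. Its level was 18.2, 16.7 and 17.6 TPM in DMMTA, against 9.92, 11.1 and 7.75 TPM in control, and the groups did not overlap. The means were 17.5 ± 0.794 TPM in DMMTA and 9.59 ± 1.70 TPM in control, a 1.82-fold increase (log2 fold change 0.85, SE 0.14, adjusted p = 0.00275). The root ligases were measured at levels that overlapped between the groups. BTSL1 had 6.06, 5.89 and 6.68 TPM in DMMTA, against 7.41, 5.22 and 4.07 TPM in control, a log2 fold change of 0.18 with a 95% interval from -0.27 to 0.63 (adjusted p = 0.529). BTSL2 had 6.15, 6.52 and 7.17 TPM in DMMTA, against 6.75, 6.65 and 4.34 TPM in control, a log2 fold change of 0.17 with an interval from -0.23 to 0.58 (adjusted p = 0.508). For both genes the control libraries spread more widely than the DMMTA libraries, and the low control was replicate 3.

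The 3 ligases together came to 30.5, 29.1 and 31.4 TPM in DMMTA, against 24.1, 23.0 and 16.2 TPM in control. BTS was 55.9% to 59.9% of that sum in DMMTA libraries and 41.2% to 48.3% in control libraries. The ratio of summed group Ib transcripts to BTS was 0.0728 to 0.106 in DMMTA libraries and 0.714 to 1.05 in control libraries. This ratio repeats the decrease of the group Ib genes and the increase of BTS, and it was not computed for other sets of genes. BTSL1 enters the ligase sum with 2 rows, so the share of BTS would be too low if reads were counted in each.

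PYE, the repressor, had 7.59, 6.42 and 5.77 TPM in DMMTA, against 7.24, 8.41 and 6.40 TPM in control. The groups overlapped, and the log2 fold change was -0.15 with a 95% interval from -0.49 to 0.20 (adjusted p = 0.507). The deposited tables hold 3 rows for PYE with equal values in each library. Its 3 annotated coding models share 1 sequence, and the level here is their sum. OPT3, the phloem transporter, had 24.2, 21.5 and 23.8 TPM in DMMTA, against 27.0, 35.0 and 19.8 TPM in control. Its control libraries lay on both sides of the DMMTA libraries, and the log2 fold change was -0.20 with an interval from -0.62 to 0.23 (adjusted p = 0.467).

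NAS4, the nicotianamine synthase, was the most abundant of the 10 genes. It had 99.7, 75.0 and 64.9 TPM in DMMTA, against 124, 124 and 93.7 TPM in control. DMMTA replicate 1 lay above control replicate 3, so the groups overlapped. The means were 79.9 ± 17.9 TPM in DMMTA and 114 ± 17.3 TPM in control, and the log2 fold change of -0.52 (SE 0.17, 95% interval from -0.91 to -0.12) missed the threshold (adjusted p = 0.0559). It passed without DMMTA replicate 1 (adjusted p = 0.0184), without control replicate 3 (0.0351) and with median-of-ratios scaling (0.0248), and leaving out the other libraries gave adjusted p-values up to 0.190.

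Of the 9 genes tested, 4 were called, against a background of 27.9% of all loci tested. Of these 4, 1 was higher in DMMTA (17.4% of all loci tested) and 3 were lower (10.5%). The median log2 fold change of the 9 was -0.20, against 0.04 over all loci tested. The groups did not overlap for 4 of the 9, where 46.5% of all loci tested had groups that did not overlap. The non-overlap of these genes is therefore close to what was usual in these libraries. The 3 genes called lower passed the filter through the control group, in which they were higher. The counts and the median of the 9 are thus no measure of the members as a whole. The calls of BHLH38, BHLH39, BHLH100 and BTS held in each of the 6 fits that left out 1 library. Adjusted p-values over those fits and the other alternatives ran up to 0.00369 for BHLH38, 0.0300 for BHLH39, 0.00477 for BHLH100 and 0.0183 for BTS. Control replicate 3 was the lowest control for 9 of the 10 genes, all but BHLH101, and for 51.2% of all loci tested.

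The order of the levels differed between the groups in its middle and at its end. In control the order by mean was NAS4, OPT3, BTS, PYE, BTSL2, BTSL1, BHLH39, BHLH38, BHLH100 and BHLH101. The ranges of neighbours from BTS down to BTSL1 overlapped, as did those from BHLH39 to BHLH100, whereas NAS4 and OPT3 stood apart from each other and from the rest. In DMMTA, BTS at 16.7 to 18.2 TPM stood clear of BTSL2, PYE and BTSL1, whose ranges overlapped at 5.77 to 7.59 TPM. BHLH39 and BHLH38 no longer overlapped in DMMTA, and BHLH100 came last.

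Ratios of 2 genes within a library compare how far members moved relative to each other. With 3 libraries a group the smallest exact p is 0.10, so no ratio could pass a threshold of 0.05, and each of the 6 ratios compared gave this p in a two-sided exact permutation test (adjusted p = 0.10). The log2 ratio of BHLH39 to BHLH38 was 0.63 ± 0.03 in DMMTA and 0.04 ± 0.36 in control (SD, n = 3). In DMMTA, BHLH38 was at 0.407 to 0.594 TPM, about the pseudocount of 0.5, which makes this ratio and its spread there too small. That of PYE to BTS was -1.35 ± 0.16 in DMMTA and -0.36 ± 0.09 in control, and that of OPT3 to BTS was 0.39 ± 0.04 in DMMTA and 1.44 ± 0.16 in control. BTSL1 to BTS was at -1.42 ± 0.09 in DMMTA and -0.76 ± 0.32 in control, and BTSL2 to BTS at -1.34 ± 0.14 in DMMTA and -0.66 ± 0.13 in control. The groups did not overlap in these ratios, but no share was computed for other pairs of genes, and 46.5% of single loci did not overlap either. The ratios to BTS share the values of BTS and so largely repeat its increase. The ratio of BHLH101 to BHLH100, 0.12 ± 0.06 in DMMTA and -1.90 ± 0.37 in control, is set largely by the pseudocount because both genes are near 0 in DMMTA.

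**Figure D2:**
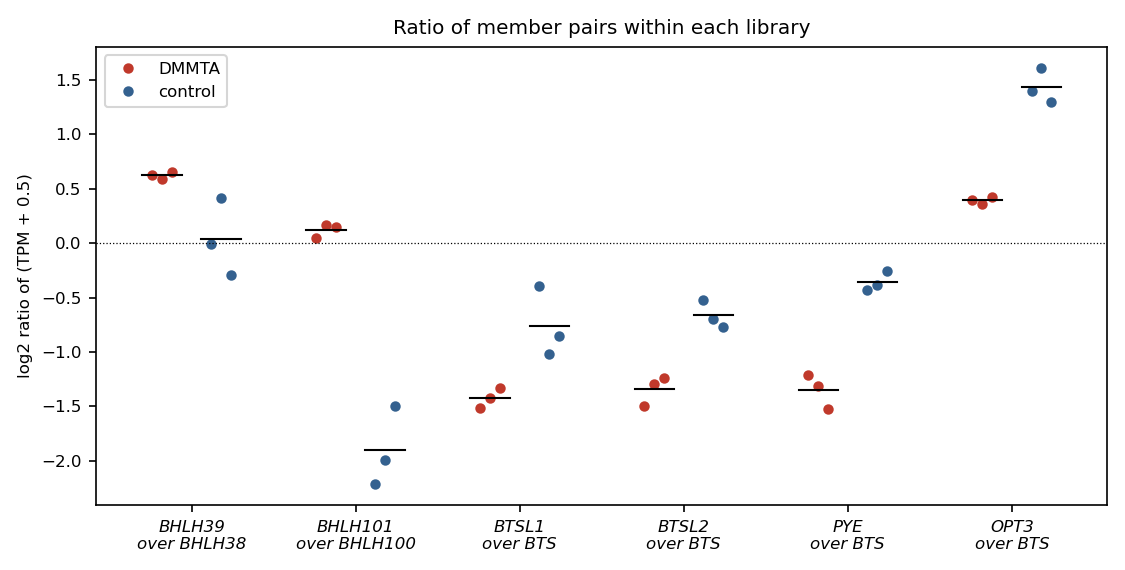
Log2 ratio of (TPM + 0.5) of 6 pairs of genes within each library, with DMMTA left and control right of each tick. Points are libraries and lines group means. For the 4 pairs over BTS every DMMTA library lies below every control library.

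Of 6 tested genes of groups IVc and IVb, which hold the direct activators of the group Ib genes and of BTS, 0 were higher and 2 lower. Over all loci tested, 17.4% were higher and 10.5% lower. ILR3 had 117, 116 and 122 TPM in DMMTA, against 112, 114 and 105 TPM in control (log2 fold change 0.10, adjusted p = 0.423). URI had 30.3, 24.7 and 29.7 TPM in DMMTA, against 25.6, 20.4 and 25.5 TPM in control (log2 fold change 0.24, adjusted p = 0.201). BHLH115 was at 104 ± 7.26 TPM in DMMTA and 139 ± 15.7 TPM in control (adjusted p = 0.0228), and BHLH11, a repressor of iron uptake, at 2.38 ± 0.331 TPM in DMMTA and 3.58 ± 0.302 TPM in control (adjusted p = 0.0361). The call of BHLH115 was lost without DMMTA replicate 1 (adjusted p = 0.0748), DMMTA replicate 2 (0.0822) or control replicate 1 (0.0693). The call of BHLH11 was lost without DMMTA replicate 1 (0.0804), DMMTA replicate 3 (0.133), control replicate 1 (0.0927) or control replicate 3 (0.0797). It was also lost with no filter on level (0.0505). The IMA peptides, small signals that protect the cascade from BTS, overlapped between the groups. IMA2 had 5.56, 4.41 and 2.53 TPM in DMMTA, against 2.91, 6.21 and 1.71 TPM in control, and IMA3 had 4.14, 4.78 and 3.68 TPM in DMMTA, against 4.20, 7.27 and 3.07 TPM in control. IMA1 stayed below 1 TPM in all libraries. IMA2 and IMA3 share 5.769% of their windows of 50 bases, so their reads may be divided.

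FIT, the partner of the group Ib proteins, fell with them. It had 5.06, 3.68 and 5.11 TPM in DMMTA, against 27.3, 15.3 and 17.4 TPM in control (log2 fold change -1.97, SE 0.22, adjusted p = 3.35e-04). In its list of 7 genes, 3 of the 4 tested were lower. BHLH25, a group IVa factor, was at 2.49 ± 1.09 TPM in DMMTA and 5.57 ± 1.87 TPM in control, a call (adjusted p = 0.0385) lost without DMMTA replicate 1 (0.0877), DMMTA replicate 2 (0.0611), control replicate 2 (0.101) or control replicate 3 (0.0823). The BHLH25 call was also lost with no filter on level (0.0693). Among 10 tested of 12 listed genes of FIT-dependent uptake 6 fell and 2 rose. Over all loci tested, 10.5% were lower and 17.4% higher. IRT2, among the 6, reached 1 TPM in 3 control libraries and 1 DMMTA library, so it passed the filter through control. IRT1 had 9.89, 6.83 and 6.74 TPM in DMMTA, against 135.5, 69.9 and 91.6 TPM in control, and FRO2 had 1.79, 1.79 and 1.35 TPM in DMMTA, against 43.4, 20.0 and 20.9 TPM in control. F6'H1, which makes the precursor of coumarins that mobilise iron, was higher, with 251, 253 and 268.5 TPM in DMMTA, against 57.0, 42.1 and 28.1 TPM in control.

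Another list held genes that respond to iron shortage outside the FIT branch, as PYE, BTS and OPT3 do. Of 9 tested, 1 rose and 1 fell, where 27.9% of all loci tested were called. Without control replicate 3, 2 fell, without DMMTA replicate 3, 2 rose, and limma-voom called 3 lower. AT3G07720, a gene with kelch repeats, was at 50.5 ± 4.75 TPM in DMMTA and 33.6 ± 1.83 TPM in control (adjusted p = 0.00392), and AT5G05250 at 1.53 ± 0.703 TPM in DMMTA and 5.06 ± 1.22 TPM in control (adjusted p = 0.00341). Of 9 genes of nicotianamine synthesis and iron distribution, 0 rose and 5 fell, with a median log2 fold change of -0.64, and 1 rose without control replicate 2. Over all loci tested, 17.4% were higher and 10.5% lower. NAS1, a relative of NAS4, was at 16.0 ± 1.79 TPM in DMMTA and 51.0 ± 4.92 TPM in control (adjusted p = 3.59e-05), and FRD3, which loads citrate into the xylem, at 43.1 ± 8.73 TPM in DMMTA and 112 ± 25.0 TPM in control (adjusted p = 0.00115).

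The list of iron storage and vacuolar import holds some genes that are known to accumulate when iron is plentiful. In it 1 of 7 tested rose and 2 fell, or 4 without control replicate 2. The share over all loci tested was 17.4% higher and 10.5% lower. FER1, a plastid ferritin, had 350, 360 and 387 TPM in DMMTA, against 730, 568 and 1021 TPM in control (adjusted p = 0.00421). VTL1, a vacuolar iron transporter-like gene, was at 7.94 ± 0.591 TPM in DMMTA and 24.1 ± 5.49 TPM in control (adjusted p = 3.62e-04). FER2 was at 11.7 ± 1.20 TPM in DMMTA and 8.28 ± 1.22 TPM in control, a call (adjusted p = 0.0371) lost without any of the DMMTA libraries (0.0651 to 0.118) or control replicate 1 (0.104).

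**Figure D3:**
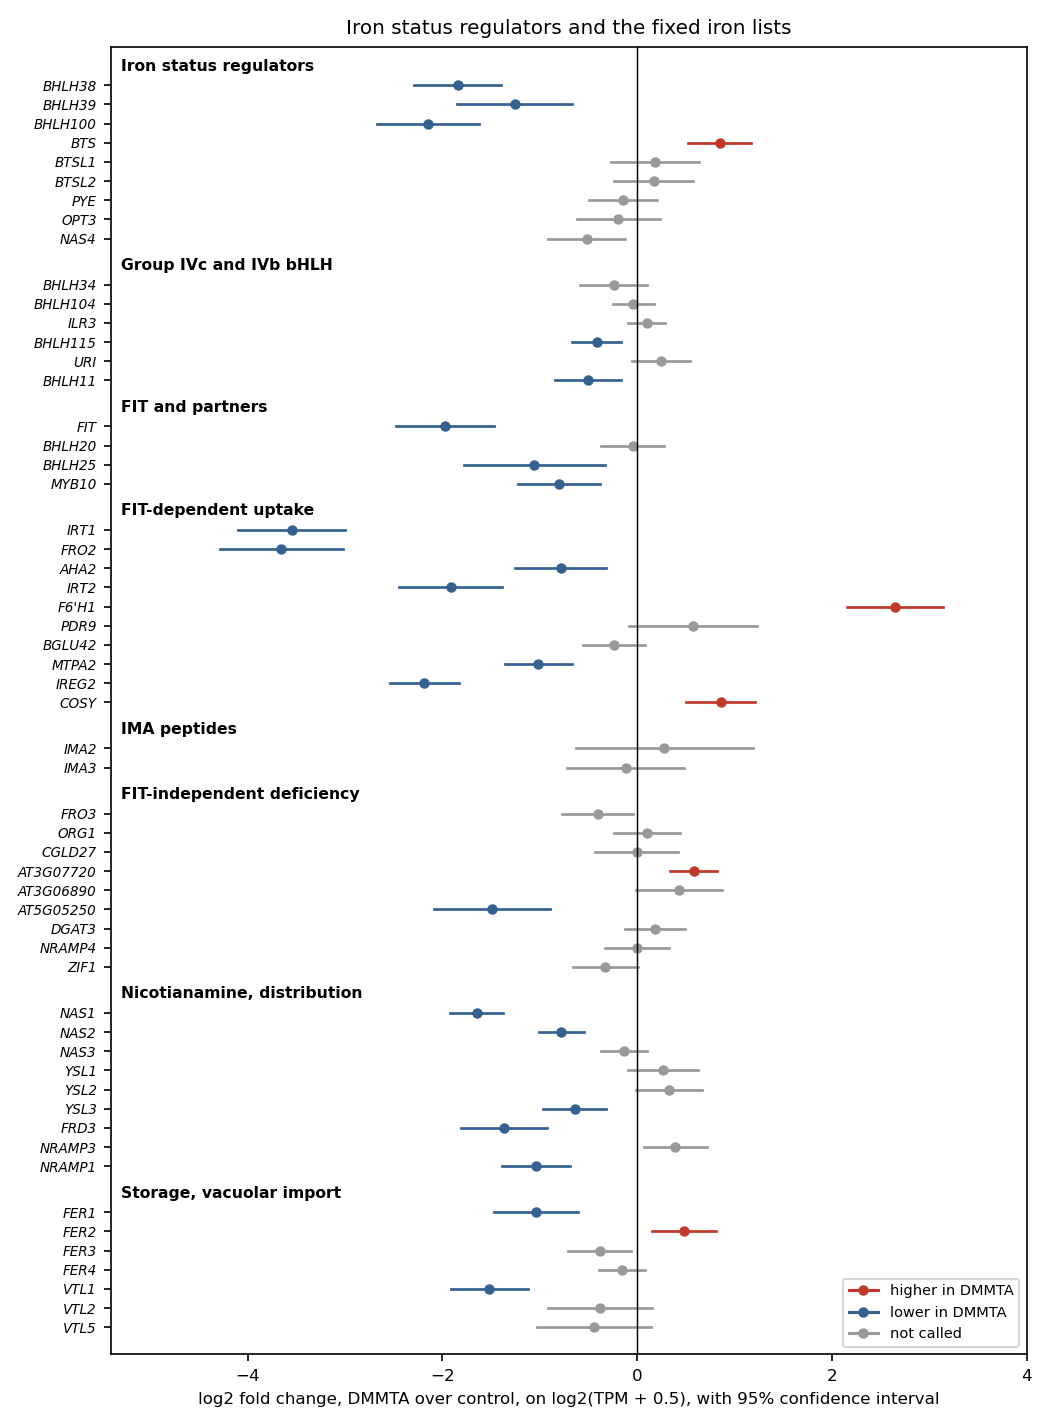
Log2 fold change, DMMTA over control, of each tested gene of the 10 and of the iron lists, with its 95% confidence interval. Red marks genes called higher in DMMTA, blue lower and grey not called. BTS is the only one of the 10 called higher, and FRO2 and IRT1 have the lowest values drawn.

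Markers of root cell types moved in the same libraries, where 17.4% of all loci tested were higher and 10.5% lower. Leaf and root markers were both present, as whole seedlings would hold, and no marker with a value was at 0. All 5 root hair markers fell (4 or 5 with libraries left out), their sum being 25.8 to 38.3 TPM in DMMTA libraries and 124 to 148 TPM in control libraries. PRP3 was at 6.18 ± 1.96 TPM in DMMTA and 44.4 ± 12.2 TPM in control, and RHS13 at 13.4 ± 2.38 TPM in DMMTA and 59.9 ± 2.63 TPM in control. Of 5 root endodermis markers 3 fell. CASP1 was at 12.3 ± 7.34 TPM in DMMTA and 47.4 ± 1.04 TPM in control, and CASP2 at 3.53 ± 1.91 TPM in DMMTA and 10.6 ± 1.37 TPM in control. The sum of the 5 was 20.6 to 43.6 TPM in DMMTA libraries and 77.9 to 81.9 TPM in control libraries. MYB36, named after its values were seen, went the other way, at 7.05 ± 1.01 TPM in DMMTA and 4.98 ± 0.855 TPM in control without overlap (log2 fold change 0.47, adjusted p = 0.0657), and was called higher without control replicate 1. Without both replicate 3 libraries 0 endodermis markers were called lower, although the log2 fold change was still -2.32 for CASP1 (adjusted p = 0.0572) and -1.57 for CASP2 (adjusted p = 0.0802). Of the 4 phloem markers with a value, limma called 0, with 1 lower at an unadjusted p under 0.05 and 2 called lower by limma-voom. Their sum was 107 to 127 TPM in DMMTA and 124 to 148 TPM in control. Of 5 leaf mesophyll markers 1 rose and 1 fell, and their sum was 14133.5 to 16072.5 TPM in DMMTA and 16045.6 to 18521.2 TPM in control. LHCB2.1 was at 511 ± 46.5 TPM in DMMTA and 361 ± 57.9 TPM in control, a call lost without DMMTA replicate 1 (adjusted p = 0.0824) or DMMTA replicate 3 (0.0613). RCA was at 887 ± 62.9 TPM in DMMTA and 1161 ± 114 TPM in control, a call lost without DMMTA replicate 2 or 3 or control replicate 1 or 3 (0.0682 to 0.125). The RCA call was also lost with no filter on level (0.0577). The part of the root markers in the decrease of the group Ib genes was not tested.

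**Figure D4:**
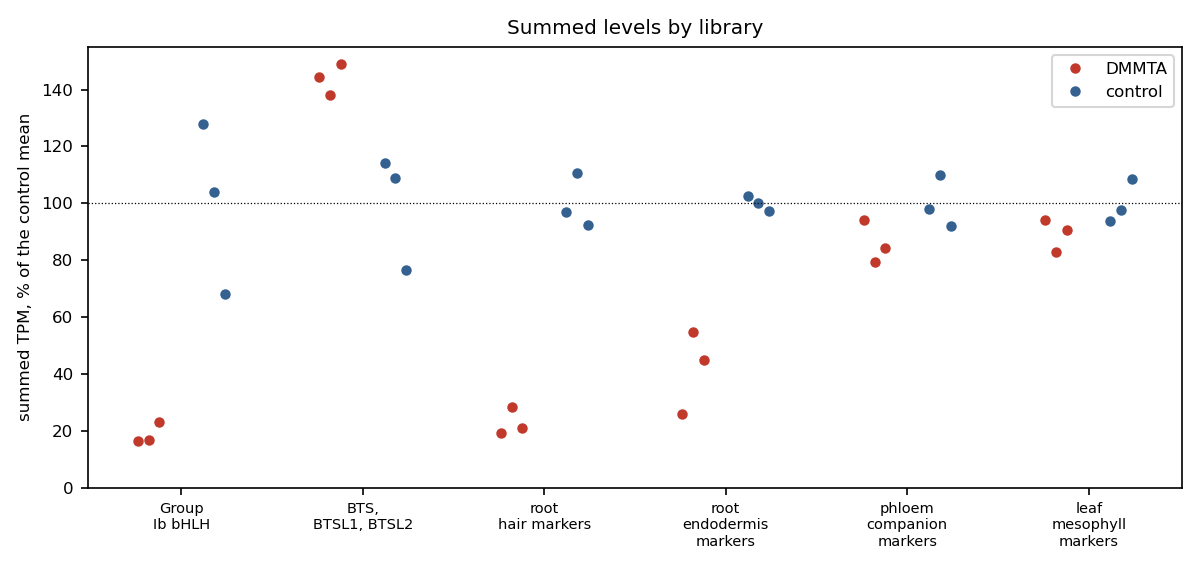
Summed TPM of the group Ib genes, the 3 ligases and 4 marker lists in each library, as a percentage of the control mean, with DMMTA left and control right. Group Ib sums lie at 16.4% to 23.0% in DMMTA, root hair markers at 19.2% to 28.5%, and the ligases at 138% to 149%.

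The loci whose profile over the 6 libraries was nearest to the mean profile of the 3 tested group Ib genes were sought among the 17746 tested loci whose log2 level averaged 1 or more. The measure was the root mean square difference of centred log2 values. BHLH100 was at 0 TPM in DMMTA, so the depth of the mean group Ib profile there depends on the pseudocount. The nearest 5 were CLC-B (0.09), PME2 (0.12), CYP735A2 (0.14), AT3G49190 (0.15) and RHS19 (0.15). CLC-B, a chloride channel family gene, was at 5.82 TPM in DMMTA and 22.6 TPM in control. For BTS the nearest 5 were ATS9 (0.03), AT5G20400 (0.04), BAK1 (0.05), NFXL1 (0.05) and GolS1 (0.05). ATS9, the proteasome subunit also called RPN6, was at 108 TPM in DMMTA and 61.3 TPM in control. These 6 libraries in 2 groups give few points by which to tell profiles apart.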

How the data were processed

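The 3 DMMTA and 3 control libraries were strand-specific and made after poly(A) selection, per the labels' protocols, which also gave the groups. The authors deposited TPM, RPKM and FPKM for each coding sequence, per the file headers. The build, the aligner and the counter were not given in the sources used here. Of 48350 rows per table, 1883 (3.895%) with displaced or empty cells were left out. All but 1 of the 26445 loci matched in TAIR10.1 had the same number of coding sequences there, so its genome and coding lengths were used, also for the promoter windows of 250 bases.

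RPKM was summed per locus and rescaled to 1000000 per library. The fit, on log2(TPM + 0.5) with an intensity trend and no covariates, was made with limma 3.58.1 (R 4.3.3) for loci that reached 1 TPM in 3 or more libraries. Fits that leave out a library kept the loci of the full fit. The fit was tested on simulated data. Depth was estimated from RPKM steps of short genes, where 89.9% to 95.3% of the low values used came to a whole number of reads, give or take 0.2. This estimate and coding length give the approximate reads, which are not independent molecules.

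The members and lists were chosen with earlier results of these data known. Named genes are the 10 members, in each list the top 2 called changes of the more frequent direction and the top 1 of the opposite direction, FIT, IRT1, FRO2, ILR3, URI, IMA1 to IMA3, and the 5 nearest profiles. Alternatives were other filters, pseudocounts (0.1 and 2), median-of-ratios scaling, FPKM, the deposited TPM, leaving out libraries, a replicate block and limma-voom. SULTR2.1, a listed phloem marker, had no usable value and was not used here. Alignments used Biopython 1.88 and figures matplotlib 3.10.9.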

Additional observations from a re-analysis of the deposited data

How the results depend on the processing

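The alternatives without both replicate 3 libraries and with limma-voom on rebuilt reads were chosen after seeing the data. The members numbered 1 higher and 3 lower in the main test, and 1 higher and 3 to 4 lower in the fits that left out each library. With a filter of at least 5 TPM in at least 3 libraries 0 members were lower, because BHLH38, BHLH39 and BHLH100 were then not tested. BTS was called higher in all 16 alternatives, and BHLH38, BHLH39 and BHLH100 were called lower in the 15 in which they were tested. BTSL1, BTSL2, OPT3 and PYE were called in 0 of 16 and NAS4 in 5 of 16. With each library left out, the log2 fold change ran from -0.0049 to 0.39 for BTSL1 and from -0.020 to 0.27 for BTSL2, both lowest without control replicate 3. It was -0.055 for BTSL1 and -0.076 for BTSL2 in the fit of replicates 1 and 2 alone. It ran from -0.092 (without control replicate 3) to 0.71 for IMA2 and from -0.37 to 0.19 (without control replicate 2) for IMA3. The cause of these changes of sign was not tested. The fitted log2 fold change of BHLH100 ran between -8.08 and -0.90 with the pseudocount and model used, since it is listed at 0 in DMMTA.

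Over all loci, 2241 to 3156 were higher and 1150 to 1733 lower with 1 library left out, against 3272 and 1978 with all. The 1150 came without DMMTA replicate 3. Without both replicate 3 libraries 2022 were higher and 1000 lower, from fewer samples. The replicate block gave 3539 higher and 2242 lower, called NAS4 lower (adjusted p = 0.00847) and lost BHLH11 (adjusted p = 0.0503). Deviations of same-numbered libraries correlated at 0.24, 0.33 and 0.08 across loci, each library best with its own number. This is a weak hint of pairing, which the labels do not state. The deviations were centred within each group, so the correlations depend on each other, and replicate 3 was the shallowest of each group. Depth limits BHLH101, which rests on at most 15.8 reads in a library.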
